A study of Homo sapiens with 24 samples.

Results

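The 10 genes described here code for the core of the G1 to S phase decision of the cell cycle: CCND1 and CCND3 (cyclins D1 and D3), CDK4 and CDK6, CCNE1 and CCNE2 (cyclins E1 and E2), CDK2, the inhibitor CDKN1B (p27), the retinoblastoma gene RB1 and the transcription factor E2F1. They were chosen by name, with earlier results of these data known, from the 60675 genes counted in each library, and all 10 passed the filter on low counts in every fit. RNA-seq was done on 24 libraries from 2 human prostate cancer cell lines, with 3 libraries for each of 8 conditions. LNCaP:C4-2 (LNCaP:C42 in the labels) is a castration-resistant derivative of LNCaP, and 22Rv1 comes from a relapsed xenograft and also makes androgen receptor variants without a ligand-binding domain. In each line, cells received either a non-targeting siRNA pool (siSCR) or a pool against METTL3, the catalytic subunit of the mRNA m6A methyltransferase (siMETTL3), in phenol red-free medium with charcoal-stripped serum. After 48 h the transfection was repeated and R1881, a synthetic androgen (1 nM), or ethanol, its vehicle, was added for 72 h. All groups thus share the transfection and the androgen-poor medium, a pool leaves part of the METTL3 mRNA in place, and each line is a single line. Nothing in the labels says whether the 3 libraries of a condition came from separate cultures, so the p-values measure the spread between these libraries, which may be technical.

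In G1, growth signals raise the D cyclins, which bind CDK4 and CDK6 and begin to phosphorylate RB1. Phosphorylated RB1 lets go of E2F1 and its relatives, which then drive CCNE1, CCNE2, their own genes and the enzymes of DNA replication, and cyclin E with CDK2 completes the phosphorylation. CDKN1B binds cyclin E-CDK2 and holds it inactive. In prostate cancer cells, androgen promotes proliferation at low doses and can hold cells in G1 at higher ones, and much of this control meets at these genes. RNA levels give only one layer of it, since CDKN1B and RB1 are largely regulated as proteins.

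The sequences before 2 of the start sites are shown because E2F1 and CCNE1 are the members that E2F factors are best known to drive, and because R1881 changed them in different cell lines. They are from RefSeq on GRCh38.p14, which gave an entry for 7 of the 10 genes, the one for RB1 lying near the 3′ end of that gene. Capitals mark the E2F words TTTCGCGC, TTTGGCGC, TTTCCCGC and TTTGCCGC on either strand.
E2F1, 250 bases at chr20:33686386-33686635 (minus strand): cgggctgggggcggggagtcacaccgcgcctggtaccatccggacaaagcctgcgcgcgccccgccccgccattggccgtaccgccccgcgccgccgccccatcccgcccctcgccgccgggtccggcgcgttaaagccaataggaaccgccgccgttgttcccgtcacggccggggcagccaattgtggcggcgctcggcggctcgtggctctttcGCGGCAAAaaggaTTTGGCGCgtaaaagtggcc
CCNE1, 157 of the 250 bases searched, without those nearest the RefSeq start, at chr19:29811741-29811897 (plus strand): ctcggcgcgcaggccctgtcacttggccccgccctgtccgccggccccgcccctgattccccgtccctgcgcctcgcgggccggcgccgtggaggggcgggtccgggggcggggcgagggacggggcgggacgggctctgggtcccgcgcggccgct
E2F1 held 2 such words, starting 33 and 20 bases before its RefSeq start, and was the only one of the 7 members with any. Of all 27305 promoters searched over the same 250 bases, 2.79% held a word, against 9 of 22 promoters (40.9%) in a list of 25 E2F target genes of S phase. The GC box GGGCGG was found in 6 of the 7 members and in 42.3% of all promoters. The androgen receptor word AGAACA was in 1 of the 7 (the RB1 entry) and in 12.4% of all. A match is a description of the letters only.

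Library totals ran from 15716224 to 21306019 fragments on genes (median 17671721), and 3 counts in the smallest library equal 0.191 CPM (counts scaled to a common library size after TMM normalization). The smallest count of a member in any library was 41, for CDK6, and 90 among the other 9. METTL3 was at 31.2, 28.6 and 26.5 CPM in LNCaP:C4-2 siSCR vehicle libraries and 19.9, 19.8 and 17.4 CPM with siMETTL3. With R1881 the values were 30.6, 33.6 and 35.9 against 22.7, 22.0 and 22.6 CPM. In 22Rv1 they were 46.5, 45.4 and 46.7 against 25.2, 24.1 and 25.4 CPM in vehicle, and 51.6, 48.8 and 50.8 against 21.4, 24.7 and 21.2 CPM with R1881. The groups never overlapped, and mean METTL3 mRNA of LNCaP:C4-2 fell by 33.8% in vehicle and fell by 32.8% with R1881, while that of 22Rv1 fell by 46.1% and fell by 55.5%. The fitted log2 changes of LNCaP:C4-2 were -0.61 ± 0.11 in vehicle (edgeR adjusted p = 0.0127) and -0.57 ± 0.11 with R1881 (edgeR adjusted p = 0.0256), the second below the fold limit of 1.5. Those of 22Rv1 were -0.89 ± 0.082 (edgeR adjusted p = 1.48e-06) and -1.18 ± 0.083 (edgeR adjusted p = 1.29e-08). Each of the 4 contrasts had an exact two-sided permutation p of 0.1, the smallest that 3 against 3 allows. All 10 luminal prostate markers were at 1 CPM or more in both lines. Of the markers of other cell types, KRT5, KRT14, TP63, COL1A2, COL3A1, DCN, PTPRC, CD3E, CD68, PECAM1 and CDH5 stayed under 2 CPM in every library, while COL1A1 reached 71.9 CPM and VWF 12.3 CPM in LNCaP:C4-2. The androgen-induced gene KLK3 ran from 15.8 to 22.2 CPM in LNCaP:C4-2 siSCR vehicle and from 316 to 370 CPM with R1881, but from 6.37 to 6.96 and 6.13 to 7.38 CPM in 22Rv1. Bulk RNA cannot tell fewer cells in a cell cycle phase from less RNA per cell. By the correlation of all genes, 4 libraries were closer to a library of another condition than to any of their own: LNCaP:C4-2 siSCR R1881 replicate 1, LNCaP:C4-2 siMETTL3 vehicle replicate 1, 22Rv1 siSCR vehicle replicate 3 and 22Rv1 siMETTL3 vehicle replicate 1. Where leaving out one of them took a member across an adjusted p of 0.05, the value without it is given.

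The largest differences between the 2 lines were in CDK6, CCND1 and CDKN1B. In siSCR vehicle libraries 22Rv1 had much more CCND1, CDK6 and CDKN1B mRNA, and LNCaP:C4-2 more CCND3, CCNE1, CCNE2 and E2F1. A gene was called when edgeR's quasi-likelihood test gave a Benjamini-Hochberg adjusted p under 0.05 and the fold change was at least 1.5. By this rule 8 of the 10 members were called, 4 higher and 4 lower in 22Rv1, where 59.2% of all genes tested were called, 31.2% higher and 27.9% lower.

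**Figure D1:**
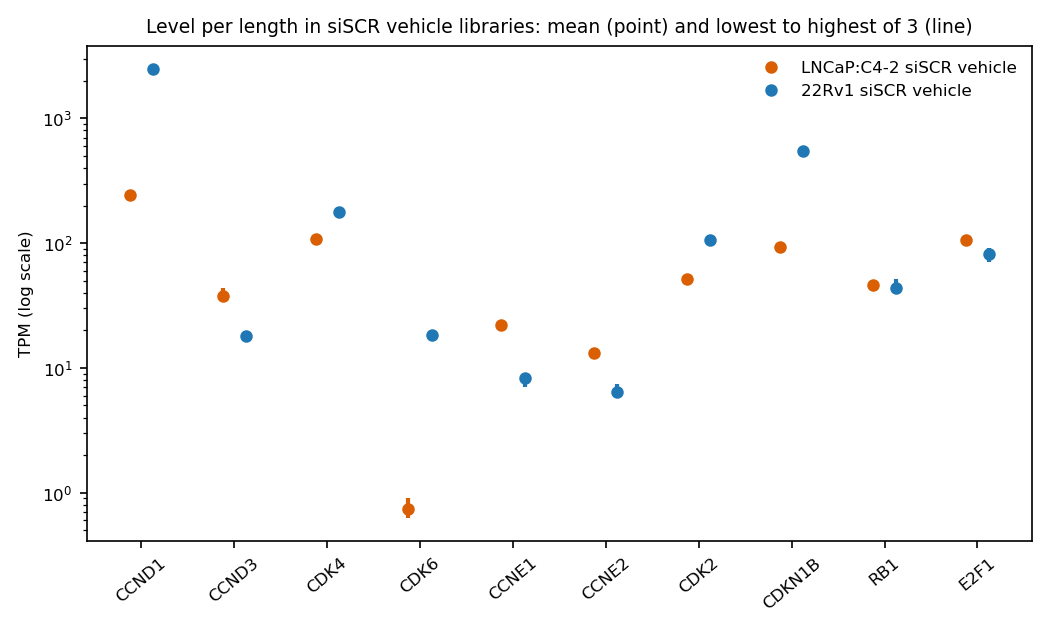
Level per length of the 10 genes (TPM, log scale) in siSCR vehicle libraries of both lines, as the mean (point) and the lowest to highest of 3 libraries (line). CCND1 had the highest level per length in both lines (243 and 2466 TPM), and CDK6 the lowest in LNCaP:C4-2 (0.746 TPM).

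Per length (TPM, a gene's share of all counts after division by exon length), CCND1 was the most abundant member in both lines. In LNCaP:C4-2 siSCR vehicle libraries it was at 243 ± 3.07 TPM (SD, n = 3), followed by CDK4 at 107 ± 4.23 and E2F1 at 106 ± 4.84, which overlapped each other. CDKN1B (93.3 ± 6.04 TPM) came next, then CDK2 (51.8 ± 4.74) and RB1 (46.6 ± 3.67), which overlapped, and CCND3 (37.9 ± 4.71). CCNE1 (22.0 ± 0.988 TPM), CCNE2 (13.1 ± 0.854) and CDK6 (0.746 ± 0.148) closed the order without overlap. In 22Rv1 the order began with CCND1 (2466 ± 53.5 TPM), CDKN1B (549 ± 4.05), CDK4 (177 ± 13.6), CDK2 (106 ± 4.12) and E2F1 (81.4 ± 10.4). It ended with RB1 (43.8 ± 6.62 TPM), CDK6 (18.3 ± 0.961), CCND3 (18 ± 1.09), CCNE1 (8.25 ± 1.11) and CCNE2 (6.40 ± 0.897). There CDK6 overlapped CCND3, and CCNE1 overlapped CCNE2. Levels per length are uncertain for CDK4, CCNE2, CDK2 and CCND1, since 43.2%, 37.1%, 16.8% and 10.3% of their exon bases also belong to another gene (TSPAN31, INTS8, PMEL and LTO1 among them) and the counting left out fragments on several genes.

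Among the D cyclins, CCND1 was at 369, 384 and 372 CPM in LNCaP:C4-2 siSCR vehicle libraries and at 3211, 3161 and 3217 CPM in 22Rv1. Every 22Rv1 library was thus far above every LNCaP:C4-2 library, a difference of 8.52-fold (log2 3.09 ± 0.080 SE, edgeR adjusted p = 7.16e-22). CCND3, which binds the same kinases, went the other way, with 80.0, 66.7 and 63.7 CPM in LNCaP:C4-2 and 29.4, 27.1 and 27.6 CPM in 22Rv1 (log2 -1.32 ± 0.13, edgeR adjusted p = 7.61e-10). The ratio of CCND1 to CCND3 per length was 5.54 to 7.02 in LNCaP:C4-2 and 131 to 140 in 22Rv1, with no overlap.

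CDK6, the kinase that shares the D cyclins with CDK4, was low in LNCaP:C4-2, at 2.76, 2.47 and 3.53 CPM (46 to 61 counts), and was at 57.1, 58.5 and 65.3 CPM in 22Rv1. This was the largest line difference among the members, 20.7-fold (log2 4.37 ± 0.17, edgeR adjusted p = 6.19e-18). CDK4 was at 111, 112 and 103 CPM in LNCaP:C4-2 and at 155, 155 and 140 CPM in 22Rv1, which passed the adjusted p but not the fold limit (log2 0.47 ± 0.098, edgeR adjusted p = 0.000136). CDK4 passed that limit with the stricter count filter (0.59) and with library size only (0.62). It was the more abundant kinase per length in both lines, 113 to 176 times CDK6 in LNCaP:C4-2 and 8.31 to 10.5 times in 22Rv1.

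The E cyclins were both lower in 22Rv1. CCNE1 was at 18.7, 17.4 and 17.6 CPM in LNCaP:C4-2 and at 6.13, 5.88 and 4.91 CPM in 22Rv1 (log2 -1.66 ± 0.14, edgeR adjusted p = 2.22e-11). CCNE2 was at 19.3, 17.2 and 18.5 CPM against 6.60, 7.17 and 8.94 CPM (log2 -1.28 ± 0.17, edgeR adjusted p = 2.07e-07). Neither gene overlapped between the lines, while their partner CDK2 was higher in 22Rv1, at 113, 110 and 110 CPM against 64.3, 59.3 and 69.6 CPM (log2 0.79 ± 0.081, edgeR adjusted p = 2.21e-09). The CDK inhibitor CDKN1B was at 84.1, 90.0 and 77.3 CPM in LNCaP:C4-2 and at 409, 411 and 423 CPM in 22Rv1, 4.95-fold more (log2 2.31 ± 0.14, edgeR adjusted p = 5.85e-14).

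Of the pocket protein and its partner, RB1 stood at 88.8, 87.4 and 98.9 CPM in LNCaP:C4-2 and at 64.8, 66.3 and 87.1 CPM in 22Rv1. The difference did not reach the fold limit (log2 -0.33 ± 0.13, edgeR adjusted p = 0.0278), and the highest 22Rv1 library, replicate 3, lay just under the lowest of LNCaP:C4-2. The p of RB1 was above 0.05 in 4 of 6 fits without a library (up to 0.167), and up to 0.203 under the other settings. E2F1 was at 89.0, 84.1 and 81.4 CPM against 60.4, 54.7 and 48.7 CPM (log2 -0.64 ± 0.12, edgeR adjusted p = 2.84e-05). E2F1 was close to the fold limit: it fell below 1.5-fold under 5 other settings (log2 -0.58 to -0.48), without 22Rv1 siSCR vehicle replicate 3 (-0.50) and without LNCaP:C4-2 siSCR vehicle replicate 1 (-0.56). The scaling between lines matters here, since RLE size factors moved the median of all genes to 0.12 and plain library size to 0.18 on the log2 scale, against 0.033 with TMM.

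With R1881 in place of vehicle, 7 of the 10 members were called between the lines, 5 higher and 2 lower in 22Rv1 (60.1% of all genes were called, 32.6% higher and 27.5% lower). CDK6 (log2 4.30 ± 0.17), CCND1 (2.84 ± 0.079), CDKN1B (1.40 ± 0.14), CDK4 (1.30 ± 0.10) and CDK2 (1.28 ± 0.083) were higher in 22Rv1, and CCND3 (-1.09 ± 0.13) and CCNE1 (-0.75 ± 0.13) lower, with edgeR adjusted p-values from 2.88e-21 to 1.22e-05. With library size only, CCNE1 was below the fold limit (log2 -0.54). CCNE2 overlapped between the lines under R1881 (log2 0.15, 95% interval -0.19 to 0.50), as did RB1. E2F1 was slightly above in 22Rv1 without overlap, and did not pass the test (log2 0.15, 95% interval -0.081 to 0.38).

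**Figure D2:**
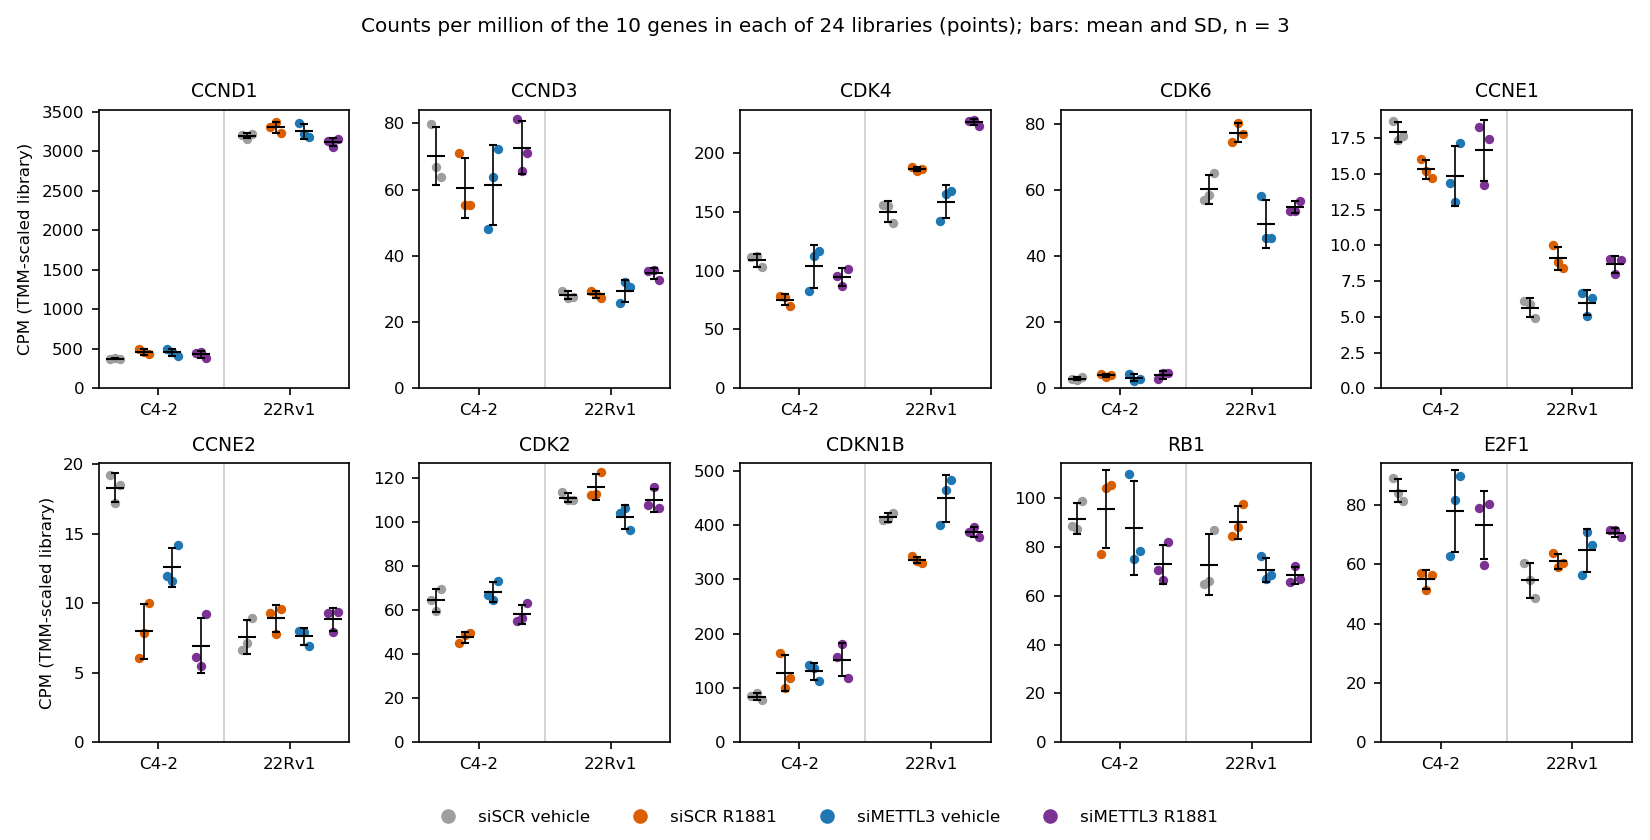
CPM of each gene (vertical axis from 0, TMM-scaled) in all 24 libraries, by line and coloured by siRNA and treatment, with the mean and SD of 3 libraries as bars. CCNE2 and E2F1 sit lower with R1881 than with vehicle in siSCR LNCaP:C4-2, and CCNE1 sits higher with R1881 in siSCR 22Rv1.

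R1881 lowered CCNE2 and E2F1 and raised CDKN1B in LNCaP:C4-2 cells with siSCR. These were 3 of the 10 members, 1 higher and 2 lower, where 15.1% of all genes were called, 7.39% higher and 7.72% lower. Without TMM, on library size only, the calls over all genes were 926 higher and 1800 lower in place of 1215 and 1269, and the median of all genes was -0.15 in place of -0.028 (log2). CCNE2 was at 19.3, 17.2 and 18.5 CPM in vehicle and at 6.04, 7.88 and 10.0 CPM with R1881. All 3 R1881 libraries were well below the vehicle libraries, and the mean fell by 56.5% (log2 -1.20 ± 0.20, edgeR adjusted p = 0.000371). E2F1 was at 89.0, 84.1 and 81.4 CPM in vehicle and at 57.2, 51.3 and 56.3 CPM with R1881, again without overlap (log2 -0.64 ± 0.13, edgeR adjusted p = 0.00266). CDKN1B, the inhibitor of the kinase that CCNE2 activates, was at 84.1, 90.0 and 77.3 CPM in vehicle and at 164, 99.6 and 118 CPM with R1881 (log2 0.59 ± 0.17, edgeR adjusted p = 0.0177). Its call rested on single libraries: without LNCaP:C4-2 siSCR R1881 replicate 1, its highest library, the log2 change was 0.38 (edgeR adjusted p = 0.0775), and without vehicle replicate 1 or 3 it was 0.59 and 0.54 (edgeR adjusted p = 0.0576 and 0.0634). With library size only it was 0.47, below the fold limit. CCNE2 and E2F1 kept their calls without each of the 6 libraries in turn, at log2 -1.40 to -1.02 and -0.66 to -0.60.

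CDK4 and CDK2 also had less mRNA with R1881 in these cells, by less than 1.5-fold after TMM. CDK4 was at 111, 112 and 103 CPM in vehicle and at 78.8, 77.5 and 69.8 CPM with R1881 (log2 -0.54 ± 0.12, edgeR adjusted p = 0.00416). CDK2 was at 64.3, 59.3 and 69.6 CPM against 44.8, 48.7 and 49.3 CPM (log2 -0.44 ± 0.10, edgeR adjusted p = 0.00493). Neither overlapped between treatments, and with library size only CDK4 was past the fold limit (log2 -0.66, edgeR adjusted p = 0.00128). CCND1 lay higher in each R1881 library, at 498, 454 and 433 CPM against 369, 384 and 372 CPM, by log2 0.29 ± 0.094 (edgeR adjusted p = 0.0336), but without single libraries this p was above 0.05 in 5 of 6 fits (up to 0.114), among them the one without siSCR R1881 replicate 1 (log2 0.25, edgeR adjusted p = 0.0834). Without the fold limit, 6 of the 10 members passed the adjusted p, as did 24.8% of all genes. CCNE1 (log2 -0.23, 95% interval -0.49 to 0.021), CCND3 (-0.22, -0.51 to 0.069), RB1 (0.054, -0.25 to 0.35) and CDK6 (0.42, -0.096 to 0.94) did not pass the test. The E cyclins thus differed in this contrast: the ratio of CCNE1 to CCNE2 per length was 1.64 to 1.74 in vehicle and 2.53 to 4.58 with R1881.

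In LNCaP:C4-2 cells with siMETTL3, CCNE2 alone of the 10 members was called with R1881, where 10.6% of all genes were called, 5.54% lower. It was at 12, 11.6 and 14.2 CPM in vehicle and at 6.12, 5.50 and 9.21 CPM with R1881, without overlap (log2 -0.84 ± 0.20, edgeR adjusted p = 0.00868). Without siMETTL3 R1881 replicate 1 or 2 it was -0.76 and -0.71, with edgeR adjusted p-values just above 0.05 (0.0515 in both). E2F1 overlapped between treatments, at 62.8, 81.7 and 89.7 CPM in vehicle and 79.0, 59.9 and 80.5 CPM with R1881 (log2 -0.083, 95% interval -0.34 to 0.18). Vehicle replicate 1, the library that stood apart, gave the 62.8 CPM, and the other 2 vehicle libraries lay above all R1881 libraries. Without it the log2 change of E2F1 was -0.22 (edgeR adjusted p = 0.204). CDKN1B was at 142, 137 and 112 CPM and 156, 181 and 119 CPM, so that the groups overlapped (log2 0.24, 95% interval -0.092 to 0.56). CDK4 (log2 -0.12), CDK2 (-0.22) and CCND1 (-0.063) did not pass the test either. Without vehicle replicate 1, CDK4 came to -0.27, with an edgeR adjusted p of 0.0542, and so stayed uncalled.

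The interaction of R1881 and siMETTL3 tests whether the R1881 response itself differed between the siRNAs. In LNCaP:C4-2 it was past an adjusted p of 0.05 for 0 of the 10 members by edgeR and 0 by DESeq2, and edgeR called 0% of all genes. At an unadjusted p under 0.05 there were 5 members, against 12.4% of all genes. The difference was largest for E2F1, at log2 0.55 ± 0.19 (95% interval 0.18 to 0.92, edgeR adjusted p = 0.337). It was 0.48 ± 0.21 for CCND3, 0.42 ± 0.17 for CDK4, 0.41 ± 0.18 for CCNE1 and -0.35 ± 0.13 for CCND1. The loss of the E2F1 and CDKN1B calls with siMETTL3 was therefore not shown to be a difference between the siRNAs. For CCNE2 the interval of the difference ran from -0.20 to 0.91.

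**Figure D3:**
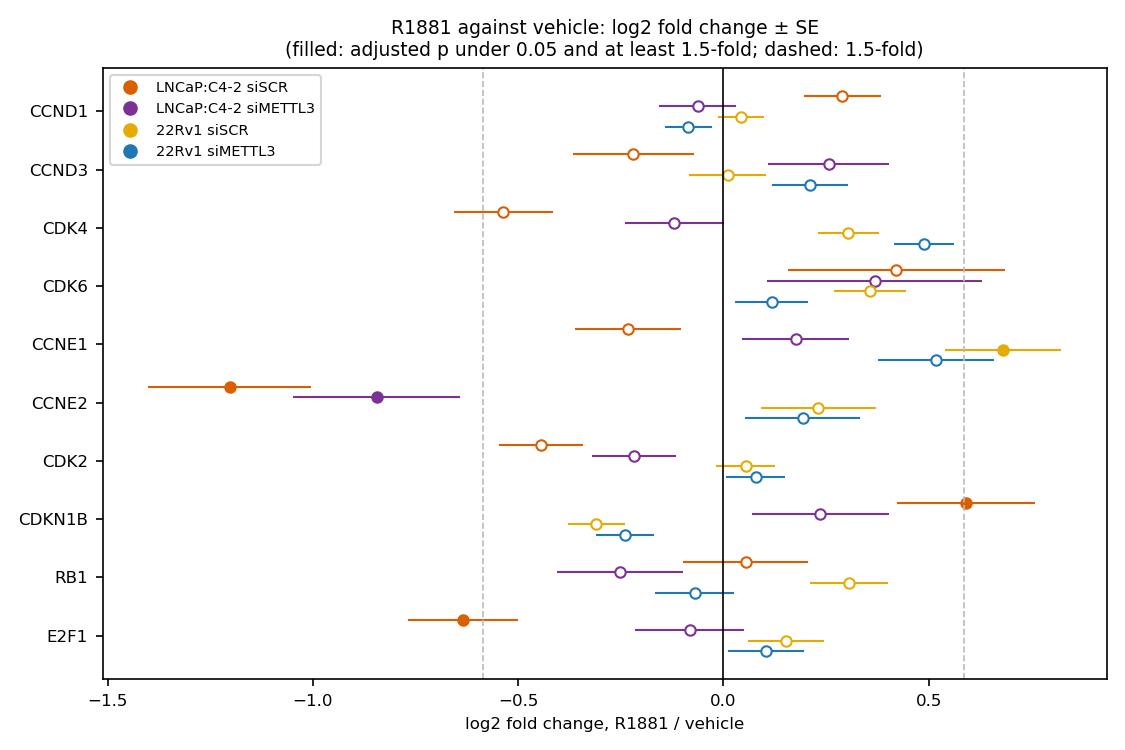
Log2 fold change of R1881 against vehicle with its SE (bars) for each gene in both lines and with both siRNAs; filled points were called, and dashed lines mark 1.5-fold. CCNE2 in LNCaP:C4-2 lies farthest from 0 with both siRNAs (-1.20 and -0.84), and CCNE1 in 22Rv1 is the 1 filled point of that line (0.68).

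In 22Rv1, R1881 raised CCNE1 and no other member past the fold limit. CCNE1 was at 6.13, 5.88 and 4.91 CPM in siSCR vehicle libraries and at 10.0, 8.84 and 8.45 CPM with R1881. Each R1881 library was above each vehicle library, by 1.60-fold on the fitted scale (log2 0.68 ± 0.14, edgeR adjusted p = 0.000805), and the call held without each of the 6 libraries (log2 0.59 to 0.75). This was 1 of 10 members, where 13.8% of all genes were called, 4.19% higher. The other E cyclin, CCNE2, was at 6.60, 7.17 and 8.94 CPM against 9.31, 7.78 and 9.62 CPM, which overlapped (log2 0.23, 95% interval -0.042 to 0.51).

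Both D-type kinases had somewhat more mRNA with R1881 in 22Rv1. CDK4 was at 155, 155 and 140 CPM in vehicle and at 188, 184 and 186 CPM with R1881 (log2 0.30 ± 0.074, edgeR adjusted p = 0.00324). CDK6 was at 57.1, 58.5 and 65.3 CPM against 74.7, 80.5 and 77.2 CPM (log2 0.36 ± 0.088, edgeR adjusted p = 0.0034). Neither reached 1.5-fold, and neither overlapped. CDKN1B was lower, at 343, 334 and 331 CPM with R1881 against 409, 411 and 423 CPM (log2 -0.31 ± 0.070, edgeR adjusted p = 0.00167). RB1 passed the adjusted p (log2 0.31 ± 0.095, edgeR adjusted p = 0.017) although 22Rv1 siSCR vehicle replicate 3, at 87.1 CPM, lay within the R1881 range of 84.5 to 97.7 CPM. That p was above 0.05 in 3 of the 6 fits without a library (up to 0.107). CCND1, at 3161 to 3217 CPM in vehicle and 3237 to 3376 CPM with R1881, had a log2 change of 0.043 (95% interval -0.067 to 0.15), although its groups did not overlap. CCND3, CDK2 and E2F1 overlapped between treatments, at log2 0.0099, 0.054 and 0.15. In all, 5 members passed the adjusted p without the fold limit, and 33% of all genes did.

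With siMETTL3, 0 of the 10 members were called for R1881 in 22Rv1 (0 by DESeq2), where 13.5% of all genes were called. At an unadjusted p under 0.05 there were 4, against 42.2% of all genes, and 3 passed the adjusted p without the fold limit, against 33.1%. CCNE1 missed the fold limit, at 6.67, 5.03 and 6.31 CPM in vehicle and 9.07, 8.01 and 8.97 CPM with R1881 (log2 0.52 ± 0.14, edgeR adjusted p = 0.00707). It was called at log2 0.59 without siMETTL3 vehicle replicate 1, one of the libraries that stood apart, and CDK6 passed the adjusted p without it (log2 0.24, edgeR adjusted p = 0.0288, against 0.12 and 0.337 with it). CDK4 was at 142, 166 and 168 CPM in vehicle and at 227, 228 and 223 CPM with R1881, the highest values of this gene in the study (log2 0.49 ± 0.074, edgeR adjusted p = 2.5e-05). Mitochondrial genes held 7.4%, 5.3% and 5.0% of counts in these vehicle libraries and 3.9%, 4.2% and 4.1% with R1881. Whether this share bears on CDK4 was not tested. CDKN1B was again lower (log2 -0.24 ± 0.070, edgeR adjusted p = 0.011), at 388, 396 and 378 CPM against 401, 465 and 483 CPM, and its p rose above 0.05 in 3 of the 6 fits without a library (up to 0.0725). The interaction in 22Rv1 was past the threshold for 0 of the 10 members by edgeR and by DESeq2 (0.0168% of all genes called), with 1 member and 6.16% of all genes at an unadjusted p under 0.05. RB1 had the largest difference, log2 -0.38 ± 0.14 (edgeR adjusted p = 0.802). Without 22Rv1 siSCR vehicle replicate 3 it was -0.52 with an edgeR adjusted p of 0.0414.

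The R1881 response differed between the lines for 6 of the 10 members, tested as a difference of differences in siSCR libraries with an adjusted p under 0.05 (16.8% of all genes passed, 7.78% higher and 9.02% lower in 22Rv1). It was higher in 22Rv1 than in LNCaP:C4-2 for CCNE2 (log2 difference 1.43 ± 0.25, edgeR adjusted p = 0.000137), CCNE1 (0.91 ± 0.19, 0.0011), CDK4 (0.84 ± 0.14, 9.03e-05), E2F1 (0.79 ± 0.17, 0.00143) and CDK2 (0.50 ± 0.11, 0.00326). It was lower for CDKN1B (-0.91 ± 0.19, edgeR adjusted p = 0.00138). All 6 stayed past the threshold without each of the 12 libraries in turn. CDK4 and CDKN1B each had fitted changes past an adjusted p of 0.05 in opposite directions in the 2 lines, at log2 -0.54 and 0.30 for CDK4 and 0.59 and -0.31 for CDKN1B. For CCND3 the interval of the difference was -0.13 to 0.58, for RB1 -0.12 to 0.62 and for CDK6 -0.55 to 0.41. CCND1 missed the threshold (-0.25 ± 0.11, edgeR adjusted p = 0.109) and passed it with DESeq2 (adjusted p = 0.0211), with RLE size factors (0.0456) and with the stricter count filter (0.048). It also passed without LNCaP:C4-2 siSCR R1881 replicate 3 (0.0276) and without 22Rv1 siSCR vehicle replicate 3 (0.048).

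**Figure D4:**
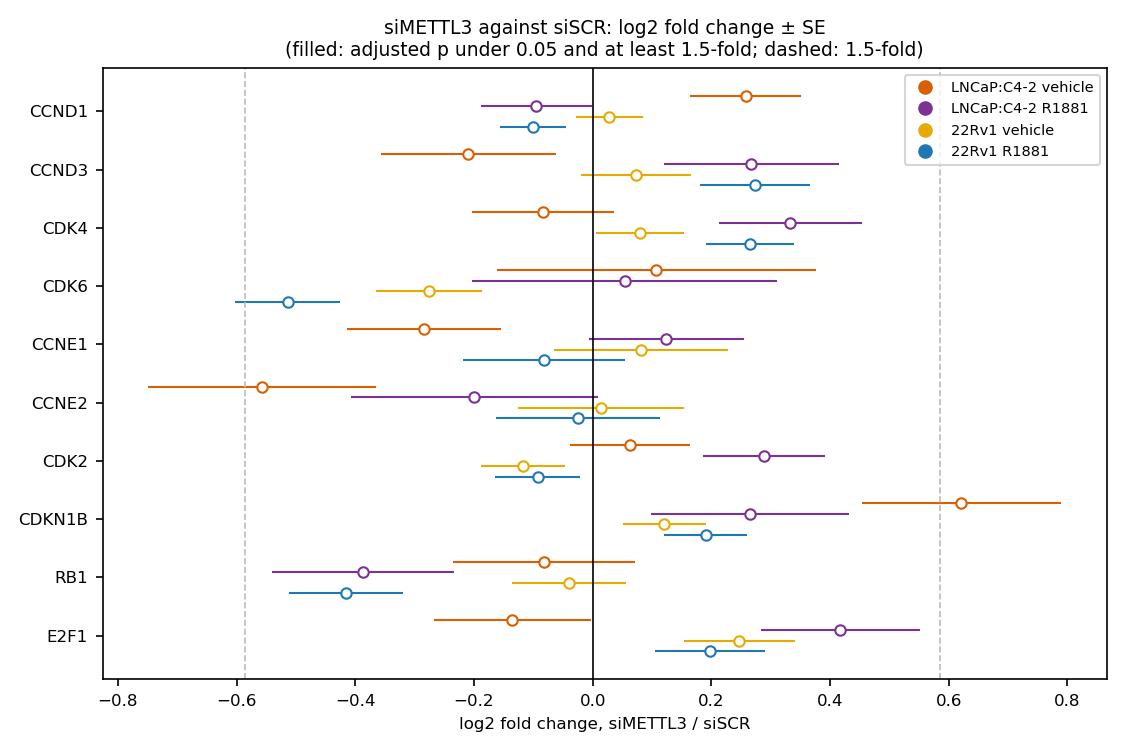
Log2 fold change of siMETTL3 against siSCR with its SE (bars) for each gene in both lines and treatments; no point is filled, since none was called, and dashed lines mark 1.5-fold. CDKN1B in LNCaP:C4-2 vehicle lies highest (0.62), and CCNE2 in LNCaP:C4-2 vehicle (-0.56) and CDK6 in 22Rv1 with R1881 (-0.51) lie lowest.

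Knockdown of METTL3 changed 0 of the 10 members past the threshold in LNCaP:C4-2 vehicle cells by edgeR and 1 by DESeq2, where 1.2% of all genes were called. At an unadjusted p under 0.05 there were 4 members and 16% of all genes. The gene that DESeq2 called was CDKN1B, at 84.1, 90.0 and 77.3 CPM with siSCR and 142, 137 and 112 CPM with siMETTL3. The groups did not overlap (log2 0.62 ± 0.17, 95% interval 0.29 to 0.95), and the adjusted p was 0.0794 by edgeR, 0.0203 by DESeq2 and 1.9e-05 by edgeR with no low-count filter. It ran from 0.0636 to 0.30 when a library was left out. CCNE2 was at 19.3, 17.2 and 18.5 CPM with siSCR and 12, 11.6 and 14.2 CPM with siMETTL3, also without overlap (log2 -0.56 ± 0.19, edgeR adjusted p = 0.158). CCND1 (log2 0.26, 95% interval 0.075 to 0.44) and CCNE1 (-0.28, -0.54 to -0.030) did not overlap either and did not pass the adjusted p. CDK4, E2F1 and CCND3 each had their lowest siMETTL3 value in replicate 1, at 82.6, 62.8 and 48.2 CPM against 103 CPM or more for CDK4, 81.4 or more for E2F1 and 63.7 or more for CCND3 in siSCR. This is the library that stood apart above.

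With R1881, 0 of the 10 members were called in LNCaP:C4-2 by edgeR and by DESeq2, where edgeR called 0.7% of all genes. At an unadjusted p under 0.05 there were 4 members, against 28.6% of all genes. E2F1 came closest, at 57.2, 51.3 and 56.3 CPM with siSCR and 79.0, 59.9 and 80.5 CPM with siMETTL3 (log2 0.42 ± 0.13, edgeR adjusted p = 0.0847). CDK4 (log2 0.33 ± 0.12, edgeR adjusted p = 0.105) and CDK2 (0.29 ± 0.10, edgeR adjusted p = 0.101) also lay higher in every siMETTL3 library. RB1 was at 77.1, 104 and 106 CPM against 70.6, 66.3 and 81.9 CPM (log2 -0.39 ± 0.15, edgeR adjusted p = 0.124). The groups overlapped only where siSCR R1881 replicate 1 (77.1 CPM) lay below siMETTL3 R1881 replicate 3 (81.9 CPM). Without siSCR R1881 replicate 1, which stood apart, RB1 was at log2 -0.54 (edgeR adjusted p = 0.0236) and CDKN1B at 0.47 (edgeR adjusted p = 0.0432, against 0.27 and 0.296 with it).

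In 22Rv1 vehicle cells, 0 of the 10 members were called for siMETTL3 by edgeR and by DESeq2 (0.202% of all genes by edgeR), with 2 members and 14.6% of all genes at an unadjusted p under 0.05, and their log2 changes lay between -0.28 (CDK6) and 0.25 (E2F1). Without siMETTL3 vehicle replicate 1, which stood apart, 3 members passed the adjusted p, each by less than 1.5-fold. They were CDK6 (log2 -0.39, edgeR adjusted p = 0.00592), E2F1 (0.34, edgeR adjusted p = 0.0236) and CDKN1B (0.20, edgeR adjusted p = 0.0425). With R1881, none reached 1.5-fold (0 called by DESeq2 as well), where 3.29% of all genes were called. An unadjusted p under 0.05 was found for 6 members and 32% of all genes, and 4 members passed the adjusted p, which 16.2% of all genes did. CDK6 was at 74.7, 80.5 and 77.2 CPM with siSCR and at 53.8, 53.8 and 56.9 CPM with siMETTL3 (log2 -0.51 ± 0.088, edgeR adjusted p = 0.00141). RB1 was at 84.5, 88.3 and 97.7 CPM against 65.8, 72.2 and 67.0 CPM (log2 -0.42 ± 0.096, edgeR adjusted p = 0.00773). Both were lower in every siMETTL3 library, while CDK4 (log2 0.27 ± 0.074, edgeR adjusted p = 0.0199) and CCND3 (0.27 ± 0.093, edgeR adjusted p = 0.0485) were higher in every one. The p of CDK6 stayed under 0.05 without each library in turn, and that of RB1, CDK4 and CCND3 rose above 0.05 in 2, 5 and 6 of the 6 fits. Per length, CDK4 was 8.87 to 9.73 times CDK6 with siSCR and 15.2 to 16.4 times with siMETTL3 under R1881. No member's siMETTL3 effect differed between the lines past an adjusted p of 0.05, by edgeR or DESeq2, in vehicle (0.458% of all genes called) or with R1881 (0.0926%). At an unadjusted p under 0.05 there were 4 members in vehicle, against 11.5% of all genes, and 2 with R1881, against 7.56%. For CDKN1B in vehicle this difference was log2 -0.52 ± 0.19 (edgeR adjusted p = 0.252), with an adjusted p of 0.0199 by edgeR without the low-count filter.

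Genes that E2F factors drive at the start of S phase were in part lower with R1881 in LNCaP:C4-2 cells with siSCR. The list holds 25 such genes, among them MCM helicase subunits and genes with roles other than replication, and all were tested. With siSCR, 14 of the 25 were called with R1881, all lower (15.1% of all genes were called, 7.72% lower), and all 25 had a log2 change below 0 (median -0.63, against -0.028 for all genes tested, and -0.74 against -0.15 on library size only). The largest changes were in UHRF1, a reader of hemimethylated DNA (59.3 ± 1.93 to 28.9 ± 4.33 CPM, log2 -1.05 ± 0.20), TK1, thymidine kinase (319 ± 17.4 to 158 ± 7.91 CPM, -1.02 ± 0.12), and the helicase genes MCM10 (-0.997 ± 0.18) and MCM2 (-0.86 ± 0.16). Their edgeR adjusted p-values ran from 1.87e-05 to 0.00145. Without LNCaP:C4-2 siSCR R1881 replicate 1 the list count was 8, without siSCR vehicle replicate 3 it was 9, and its range over libraries left out was 8 to 15.

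With siMETTL3, all 25 again had a log2 change below 0 with R1881 in LNCaP:C4-2 (median -0.36, against -0.003 for all genes). An unadjusted p under 0.05 was found for 14, a count for which no share of all genes is given here. It therefore cannot show whether the list stood out from all genes, whose lower quartile was log2 -0.25. By the full rule 0 of the 25 were called (0 by DESeq2), where edgeR called 10.6% of all genes. That count was 7 without LNCaP:C4-2 siMETTL3 R1881 replicate 3, 2 without siMETTL3 vehicle replicate 1 and 1 without siMETTL3 R1881 replicate 1. Summed over the list, the siSCR libraries held 3390, 3267 and 3676 CPM in vehicle and 1943, 2410 and 2440 CPM with R1881, without overlap. The siMETTL3 libraries held 2702, 3076 and 3378 CPM in vehicle and 2318, 2006 and 2814 CPM with R1881. These overlapped only where vehicle replicate 1 (2702 CPM), the library that stood apart, lay below R1881 replicate 3 (2814 CPM). For the interaction, 0 of the 25 passed by edgeR and DESeq2 (5 at an unadjusted p under 0.05, against 12.4% of all genes), and the median difference was log2 0.26. TK1 was the 1 list gene called for siMETTL3 in LNCaP:C4-2 with R1881 (log2 0.71 ± 0.12, edgeR adjusted p = 0.0174), where 0.7% of all genes were called. The call was lost without siSCR R1881 replicate 2 or 3 and without siMETTL3 R1881 replicate 1 or 3.

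**Figure D5:**
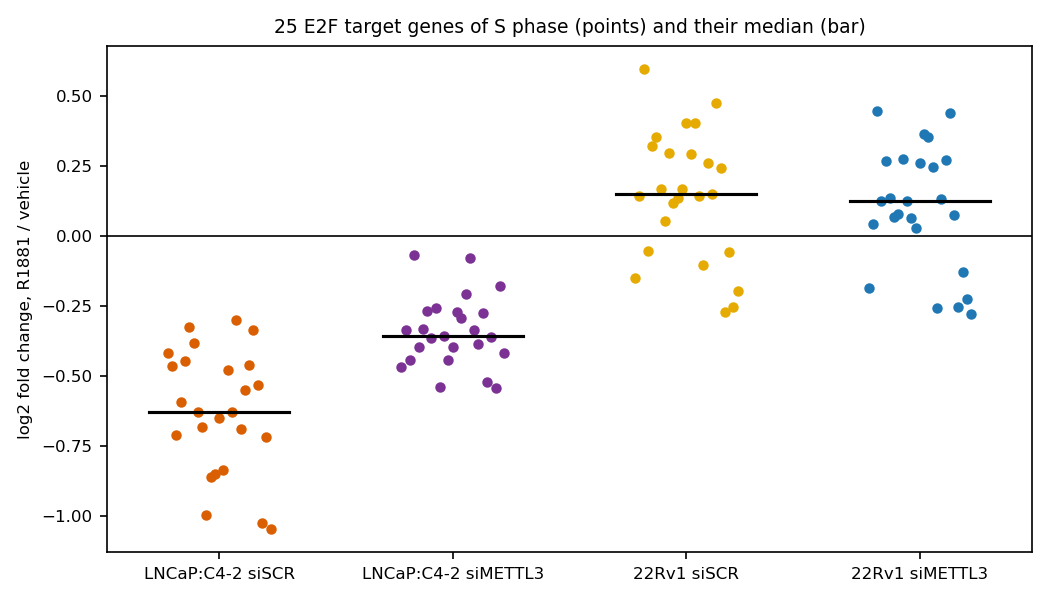
Log2 fold change of R1881 against vehicle for 25 E2F target genes of S phase (points) and their median (bar) in both lines and with both siRNAs. All points lie below 0 in LNCaP:C4-2 (medians -0.63 and -0.36), and 18 and 19 of 25 lie above 0 in 22Rv1 (medians 0.15 and 0.12).

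In 22Rv1 the same list had a median of 0.15 with siSCR, and 1 gene was called (13.8% of all genes were), CDC6, a licensing factor (58.7 ± 9.58 to 89.0 ± 3.61 CPM, log2 0.60 ± 0.091, edgeR adjusted p = 2.8e-05). Without 22Rv1 siSCR vehicle replicate 1 or R1881 replicate 3 this count was 0. With siMETTL3 the median was 0.12 and 0 genes were called by edgeR and DESeq2, where edgeR called 13.5% of all genes. An unadjusted p under 0.05 was found for 13 of the 25 and for 42.2% of all genes. The response differed between the lines for 20 of the 25, where 16.8% of all genes passed, each higher in 22Rv1, by up to log2 1.31 ± 0.22 for CDC6 (edgeR adjusted p = 0.000112). That count ranged from 15 to 20 over the libraries left out. In siSCR vehicle cells 10 of the 25 were called lower in 22Rv1 and 0 higher. Of all genes 59.2% were called, 27.9% lower and 31.2% higher. The lower calls were led by TK1 (log2 -2.15 ± 0.12), MYBL2 (-1.75 ± 0.12) and GINS1 (-1.64 ± 0.13). With R1881 the count was 6 higher and 3 lower, where 60.1% of all genes were called, 32.6% higher and 27.5% lower. The knockdown called 0 of the 25 in vehicle in either line by edgeR and DESeq2. An unadjusted p under 0.05 was found for 9 in LNCaP:C4-2, against 16% of all genes, and for 3 in 22Rv1, against 14.6%. In LNCaP:C4-2 vehicle 23 of the 25 lay below 0 (median log2 -0.25, against 0.0014 for all genes), and in 22Rv1 vehicle 16 (-0.051, against -0.0043). With R1881, 13 lay below 0 in LNCaP:C4-2 (median -0.009) and 18 in 22Rv1 (-0.080, against -0.023). In 22Rv1 with R1881, 0 of the 25 were called. There 6 passed the adjusted p, all lower, and 16.2% of all genes passed it in either direction.

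Of 30 other genes of the G1 machinery (further CDK inhibitors, pocket proteins, E2F and DREAM subunits, CDK-activating kinase), 29 were tested and the other, CCND2, was too low. R1881 called 4 of them in LNCaP:C4-2 with siSCR, close to the 15.1% of all genes called. The CDK inhibitor CDKN1C was higher, at 16 ± 3.18 CPM in vehicle and 51.2 ± 21.8 with R1881 (log2 1.67 ± 0.27, edgeR adjusted p = 0.000343). E2F2, an activator like E2F1 (log2 -0.92 ± 0.16), the pocket protein gene RBL1 (-0.67 ± 0.19) and the repressor E2F7 (-0.64 ± 0.18) were lower. CDKN1C was also the 1 gene of the list called with R1881 after siMETTL3 (log2 0.89 ± 0.26, edgeR adjusted p = 0.027), against 10.6% of all genes. It was the 1 called for siMETTL3 in vehicle too (1.24 ± 0.27, edgeR adjusted p = 0.0321), against 1.2% of all genes. The first count ranged from 0 to 3 and the second from 0 to 1 over the libraries left out, the second being 0 without LNCaP:C4-2 siSCR vehicle replicate 1, 2 or 3 or siMETTL3 vehicle replicate 2. The first was 0 without siMETTL3 vehicle replicate 3 or siMETTL3 R1881 replicate 1 or 2. With R1881, siMETTL3 called 0 of the 29 in LNCaP:C4-2 by edgeR and DESeq2, and 2 without siSCR R1881 replicate 1. An unadjusted p under 0.05 was found for 9 of the 29 and for 28.6% of all genes.

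In 22Rv1, R1881 called 3 of the 29, where 13.8% of all genes were called. It lowered CDKN2B, an inhibitor of CDK4 and CDK6 (8.56 ± 0.576 to 3.48 ± 0.994 CPM, log2 -1.30 ± 0.18), and E2F7 (-0.67 ± 0.096), and raised the DREAM subunit gene LIN52 (0.71 ± 0.11). CDKN2B and E2F7 were called with siMETTL3 too (log2 -1.19 ± 0.18 and -0.79 ± 0.097), with edgeR adjusted p-values from 1.74e-06 to 2.98e-05 over these 5 calls. siMETTL3 called 0 of the 29 in 22Rv1 in vehicle and 0 with R1881, by edgeR and DESeq2. An unadjusted p under 0.05 was found for 3 in vehicle, against 14.6% of all genes, and for 12 with R1881, against 32%. Between the lines in siSCR vehicle cells 16 of the 29 were called, where 59.2% of all genes were, with 12 higher in 22Rv1, among them CDKN2A, which codes for p16 and ARF (2.38 ± 0.409 CPM in LNCaP:C4-2 and 54.1 ± 3.40 in 22Rv1, log2 4.50 ± 0.16), and CDKN2B (3.88 ± 0.28), and 4 lower, among them E2F3 (-1.15 ± 0.098) and CDKN1C (-1.03 ± 0.25).

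The members that varied most alike over the 12 libraries of LNCaP:C4-2 were CDK4 and E2F1, with a Pearson r of log2 CPM of 0.947 (0.769 in 22Rv1). In 22Rv1 they were CCND3 and E2F1 (r = 0.85, and 0.612 in LNCaP:C4-2). In LNCaP:C4-2, CCNE2 and CDKN1B varied in opposite directions (r = -0.836, and -0.549 in 22Rv1). In 22Rv1, CDK6 and CDKN1B did so (r = -0.889), but not in LNCaP:C4-2 (0.389). Over all 24 libraries, centred within each line, the gene most like CCNE2 among 11387 was RFWD3 (r = 0.944), followed by the replication gene GINS4 (0.942). For CDKN1B it was the glycolytic enzyme gene ENO2 (0.955), followed by ALDOC (0.943) and DUSP1 (0.935). For E2F1 it was NCAPH2 (0.937), for CDK4 BRMS1 (0.946), for RB1 CUL2 (0.951) and for CCND3 PRELID1 (0.929). CCNE1 was most like TRIM27 (0.909), CDK2 like YWHAH (0.891), CCND1 like RAB5B (0.88) and CDK6 like SEC31A (0.839). These values describe libraries that share conditions, and each is the highest of many.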

How the data were processed

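RNA-seq counts of 24 libraries (2 lines, 2 siRNA pools, 2 treatments, n = 3) were used. The deposited values are raw counts of fragments per gene, without normalization. To make them, the authors used Trim Galore for adapters, STAR for alignment (GRCh38) and featureCounts 1.5.0 with the Ensembl release 83 annotation. No strand option was set, and fragments on several places or genes were left out by default, which lowers genes that share exons with neighbours. Of 60675 gene identifiers, 56558 were named from the reference annotation.

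The 12 libraries of a line were fitted together in edgeR 4.0.16 (R 4.3.3) with TMM, filterByExpr (count minimum 10, total 15) and the quasi-likelihood test, with 16435 genes tested in LNCaP:C4-2 and 17865 in 22Rv1. Line differences came from a fit of all 24 (19437 genes). Genes were called at a Benjamini-Hochberg adjusted p, over all genes tested, under 0.05 and at least 1.5-fold, and differences between responses at the adjusted p alone. The SE is the log2 change divided by the square root of F. CPM were scaled by TMM over 24 libraries, and TPM used the exon lengths in the deposited files. The study's methods used DESeq2, which here was an alternative (1.42.0), as were other normalizations, filters, thresholds, a replicate block and leaving out each library. Scripts were tested on simulated data. Intervals and floors cover counting error and library spread only. Named non-members were METTL3 and at most 4 called genes per list and comparison with the largest change. The genes most like a member had the highest Pearson r among genes at 1 CPM or more in both lines (log2 CPM, prior count 2). Members, lists and tests were chosen with earlier results of these data known. Replicates of a condition differed by more than counting noise (mean chi-square per gene 2.32 to 47.6), so none was counted as a duplicate.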

Additional observations from a re-analysis of the deposited data

Results flagged for a closer look

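The R1881 response in siSCR cells differed between 22Rv1 and LNCaP:C4-2 by the test of the difference itself for 6 members, on the log2 scale and as 22Rv1 minus LNCaP:C4-2. For CCNE2 the difference was 1.43 and for CCNE1 it was 0.91. For CDK4 it was 0.84, for E2F1 0.79 and for CDK2 0.50. For CDKN1B it was -0.91.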

How the results depend on the processing

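Of the members' log2 changes recomputed under each alternative, 2368 stayed on their side of the threshold with the same sign, 29 passed it anew, 16 no longer passed and 67 turned sign, the last in changes that were not called. The cause was not tested. Counts of members called under other settings were as follows. With no fold threshold, R1881 in siSCR cells gave 6 in LNCaP:C4-2 (3 with it) and 5 in 22Rv1 (1), R1881 with siMETTL3 gave 3 in 22Rv1 (0), and siMETTL3 under R1881 gave 4 in 22Rv1 (0). In LNCaP:C4-2 vehicle cells siMETTL3 gave 1 with no low-count filter and 1 with DESeq2 (0), and the line difference of the siMETTL3 effect in vehicle gave 1 with no low-count filter (0). Over libraries left out, the counts ran from 0 to 1 for R1881 in LNCaP:C4-2 with siMETTL3, for R1881 in 22Rv1 with siMETTL3 and for the interaction in 22Rv1. METTL3 in LNCaP:C4-2 vehicle was -0.61 with only the libraries compared (edgeR adjusted p = 0.054), -0.61 at an adjusted p under 0.01, where it was not called, and -0.66 to -0.55 without 1 library. In LNCaP:C4-2 with R1881 it was called at -0.57 with no fold threshold, and it was -0.65 to -0.52 without 1 library, being called without siSCR R1881 replicate 1. No analysis with pairs underlies the text. With a block for replicate number, R1881 in LNCaP:C4-2 siSCR cells gave 2 members, CDKN1B being just under 1.5-fold (log2 0.58), and the block changed no other count of members called. Same-numbered libraries did not deviate together (mean correlation over 18 pairs -0.013 for LNCaP:C4-2, and -0.0074 for 22Rv1). This cannot show whether they were prepared together. Counts of other lists that moved by over 1.5 times were, for the S phase list under R1881 in siSCR cells, 9 at an adjusted p under 0.01 in LNCaP:C4-2 (14) and 10 with no fold threshold in 22Rv1 (1). Counts of siMETTL3 calls over all genes moved with the setting. In LNCaP:C4-2 they ran from 112 to 464 over 7 alternatives in vehicle (197) and from 39 to 776 with R1881 (115), and without 1 library from 0 (siSCR vehicle replicate 3) to 339 (siMETTL3 vehicle replicate 1) and from 1 (siMETTL3 R1881 replicate 1) to 1497 (siSCR R1881 replicate 1). In 22Rv1 vehicle they ran from 14 to 87 (36) and without 1 library from 15 to 228, the last without siMETTL3 vehicle replicate 1. With R1881 in 22Rv1 the count fell from 587 to 309 without siMETTL3 R1881 replicate 1, and the interactions reached 351 in LNCaP:C4-2 (0) and 79 in 22Rv1 (3) with no low-count filter. The line differences of the siMETTL3 effect ran from 15 to 322 in vehicle (89) and from 5 to 93 with R1881 (18), and the lines differed for 6371 and 6641 genes with the stricter filter (11497 and 11689). Limits are the 3 libraries a condition and, for CDK6 in LNCaP:C4-2, counts of 41 to 84.

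The sign of some uncalled log2 changes turned when 1 library was left out, with the ranges over those fits given here. R1881 in LNCaP:C4-2 with siSCR gave -0.020 to 0.20 for RB1. R1881 in LNCaP:C4-2 with siMETTL3 gave -0.13 to 0.0074 for CCND1 and -0.22 to 0.034 for E2F1. siMETTL3 in LNCaP:C4-2 vehicle gave -0.17 to 0.056 for CDK4, -0.18 to 0.30 for CDK6 and -0.27 to 0.020 for RB1. siMETTL3 in LNCaP:C4-2 with R1881 gave -0.086 to 0.26 for CDK6. The LNCaP:C4-2 interaction gave -0.25 to 0.23 for CDK6. R1881 in 22Rv1 with siSCR gave -0.015 to 0.046 for CCND3. siMETTL3 in 22Rv1 vehicle gave -0.016 to 0.20 for CCNE1, -0.066 to 0.14 for CCNE2 and -0.11 to 0.10 for RB1. siMETTL3 in 22Rv1 with R1881 gave -0.11 to 0.055 for CCNE2. The 22Rv1 interaction gave -0.17 to 0.048 for CCNE2, -0.015 to 0.075 for CDK2, -0.013 to 0.13 for CDKN1B and -0.14 to 0.034 for E2F1. The lines under R1881 gave -0.042 to 0.34 for CCNE2. The line difference of the R1881 response gave -0.24 to 0.021 for CDK6. The line difference of the siMETTL3 effect in vehicle gave -0.052 to 0.24 for RB1. The line difference of the siMETTL3 effect in R1881 gave -0.043 to 0.071 for CCND1, -0.093 to 0.11 for CCND3, -0.014 to 0.47 for CCNE2, -0.11 to 0.025 for CDK4, -0.27 to 0.087 for CDKN1B and -0.090 to 0.13 for RB1. With library size only, the sign turned at -0.061 for RB1 (R1881 in LNCaP:C4-2 siSCR), -0.017 for CCND1 (R1881 in 22Rv1 siSCR), -0.051 for CCND3 (R1881 in 22Rv1 siSCR), -0.00804 for CDK2 (R1881 in 22Rv1 siSCR) and 0.12 for RB1 (lines under R1881). With at least 10 counts in every library, the sign turned at -0.017 for CCND3 (R1881 in 22Rv1 siSCR) and 0.0032 for RB1 (lines under R1881). With only the libraries compared, the sign turned at -0.000126 for CCND3 (R1881 in 22Rv1 siSCR). With no low-count filter, the sign turned at 0.015 for CCNE2 (siMETTL3 in 22Rv1 with R1881).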
